A study of Mus musculus with 6 samples.

Results

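MicroRNA host transcripts are long RNAs, protein-coding or non-coding, from whose exons or introns microRNA hairpins are cut. The 7 transcripts described here, all annotated as non-coding, are A330023F24Rik (host of miR-29b-2 and miR-29c), A430106G13Rik (miR-181b-1), Mir124a-1hg, Mir9-3hg, Mir99ahg, Mir22hg and Mir17hg. The miR-181a-1 hairpin reaches across the annotated start of A430106G13Rik and lies mostly outside it. They were taken by symbol from the 53715 genes of the table, with gene identifiers matched to GENCODE M21 on the mouse build GRCm38, and all 7 were found. A330023F24Rik and A430106G13Rik were picked because they passed the edgeR comparison of the diets made here. Their levels are therefore given as a description and not as a test. DESeq2, the package named in the study's methods, gave 3 of the 7 hosts an adjusted p when run here by default, and called 0. The study asked how a diet low in manganese (Mn) changes gene expression in the mouse brain. The low-Mn group was 3 male wild-type C57BL/6 mice fed a purified diet labelled 0 ppm Mn (nominally below 0.01 ppm in the study's methods). The normal-Mn group was 3 such mice fed the same kind of diet with 35 ppm Mn. The methods also give measured concentrations, whose range for the low-Mn diet reached above 0.01 ppm. Mice of both groups were 4 weeks old at purchase, kept on the 35 ppm diet before the experiment, and fed their test diet for 14 days. Each library held polyadenylated RNA from the whole cerebellum of 1 mouse, a mixture of all its cells.

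A host gene is transcribed into a primary transcript, in which the nuclear enzyme Drosha with Dgcr8 cuts out the hairpin. Dicer trims the hairpin in the cytoplasm, and an Argonaute protein carries the mature strand to messenger RNAs that pair with its seed (bases 2 to 8). Cutting an exonic hairpin destroys the spliced host, whereas an intronic hairpin can leave it whole, so the level of a host is not the level of its microRNA. In the brain, miR-124 and miR-9 are known for their part in making neurons, miR-29 for its rise as neurons mature, and the miR-17 to miR-92 cluster for driving proliferation of precursor cells.

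The mature strands show which microRNAs share a seed, and a selection is listed for each host whose hairpins had an entry in RefSeq. They come from RefSeq on GRCm38.p6, run 5′ to 3′, and have the seed in capitals. Of the hairpins annotated in the hosts, 14 matched an entry there, with 27 mature sequences. Mir124a-1 and Mir3078, annotated with Mir124a-1hg, are named only. The miR-181a-5p strand is listed with A430106G13Rik but lies just before the annotated start of that transcript.
miR-29b-3p (A330023F24Rik): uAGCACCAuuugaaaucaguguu
miR-29c-3p (A330023F24Rik): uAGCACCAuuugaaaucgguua
miR-181a-5p (A430106G13Rik): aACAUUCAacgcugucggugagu
miR-181b-5p (A430106G13Rik): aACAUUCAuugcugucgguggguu
miR-9-5p (Mir9-3hg): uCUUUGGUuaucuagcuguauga
let-7c-5p (Mir99ahg): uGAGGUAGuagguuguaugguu
miR-99a-5p (Mir99ahg): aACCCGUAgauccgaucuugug
miR-22-3p (Mir22hg): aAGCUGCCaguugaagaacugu
miR-17-5p (Mir17hg): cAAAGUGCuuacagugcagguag
miR-20a-5p (Mir17hg): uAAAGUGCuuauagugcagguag
The miR-29 strands share the seed AGCACCA, the miR-181 strands ACAUUCA, and miR-17 and miR-20a AAAGUGC, so the strands within each of these 3 pairs match the same 7 bases in a messenger RNA. Within Mir17hg, miR-19a-3p and miR-19b-3p also share a seed, GUGCAAA.

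The 6 libraries held 14548336 to 17124327 estimated gene counts on the low-Mn diet and 18446701 to 21277469 on the normal-Mn diet, so every low-Mn library was shallower. Levels are therefore given as CPM, each gene's share of the library's counts, after scaling by TMM, a factor per library that lines up most genes, and the factors were 0.9885 to 1.008. Normal-Mn replicate 2 stood apart from its group: set against the other normal-Mn libraries, its counts gave chi-square values of 7.6 and 6.74 per degree of freedom, whereas the other pairs of like diet gave 3.63 to 4.0. The cerebellum's own markers were present in every library and of like summed level, 4588 to 4644 CPM in low-Mn and 4422 to 4700 CPM in normal-Mn libraries for 6 granule neuron genes and 8006 to 8381 against 7591 to 8214 CPM for 6 Purkinje genes. Summed markers were lower in all low-Mn libraries for oligodendrocytes (6535 to 6807 against 6990 to 7765 CPM), astrocytes (5107 to 5313 against 5374 to 5541 CPM), meninges (245.2 to 274.3 against 292.6 to 333.6 CPM, but overlapping at 89.54 to 115.2 against 114.9 to 122.0 CPM without Igf2) and microglia (95.14 to 102.9 against 110.0 to 111.5 CPM), each list with 6 of 6 genes detected. The choroid plexus sums overlapped (2192 to 2721 against 2531 to 3067 CPM), but its 6 genes all had negative log2 fold changes (median -0.246) and 1 of them was called lower, Kl, at 86.5 ± 9.43 against 123.5 ± 12.9 CPM (SD, n = 3 each; edgeR adjusted p = 0.00183). The part of depth and of these cell types in the results was not tested, and in whole tissue fewer cells of a type cannot be told apart from less RNA per cell.

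A330023F24Rik was the host with the widest gap between the diets. It is transcribed from the plus strand of chromosome 1 (chr1:194976375-195037904, ENSMUSG00000096929), where 9 exon blocks cover 9354 bases, and both miR-29 hairpins lie in its last exon (chr1:195037040-195037120 for miR-29b-2 and chr1:195037547-195037634 for miR-29c). It had 104.4, 100.4 and 97.2 CPM in low-Mn replicates 1, 2 and 3, against 17.8, 57.3 and 19.9 CPM in normal-Mn replicates 1, 2 and 3. The low-Mn libraries lay close together and above every normal-Mn library, while normal-Mn replicate 2 lay far above the others of its diet. The means were 100.7 ± 3.63 CPM in low-Mn and 31.7 ± 22.2 CPM in normal-Mn cerebellum (SD, n = 3 each), a 3.18-fold ratio, and the log2 fold change from edgeR, with normal-Mn as the denominator here and throughout, was 1.66 (SE 0.241). It was called in every edgeR and limma-voom fit, but in none of the DESeq2 fits, where the dispersion was 0.21 and the SE 0.541.

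**Figure D1:**
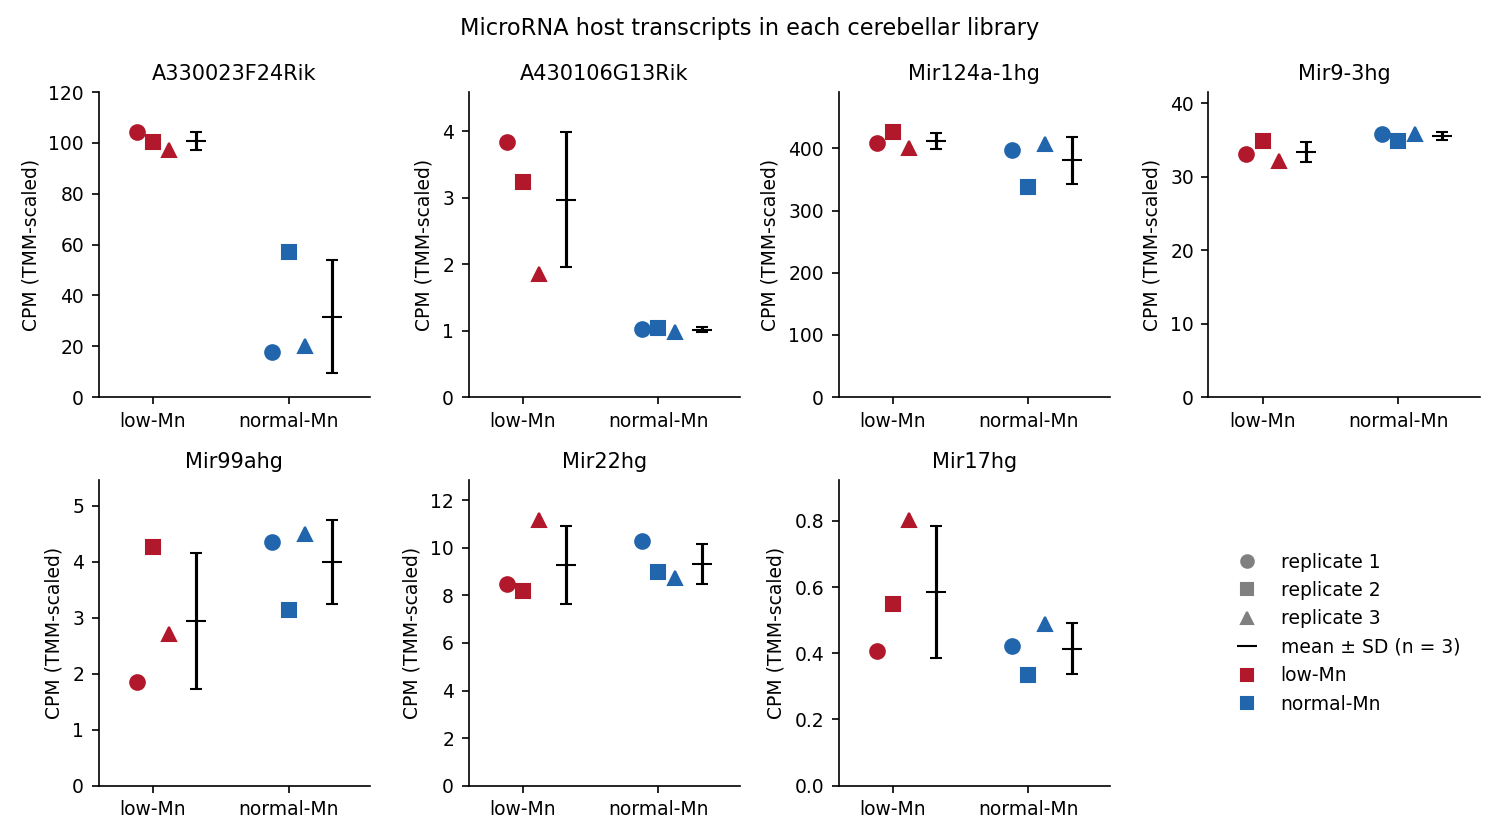
Level of each host transcript in CPM (TMM-scaled) in every library, low-Mn (red) left of normal-Mn (blue), with symbols for replicates 1 to 3 and bars for mean ± SD (n = 3). The groups are apart for A330023F24Rik (97.2 to 104.4 against 17.8 to 57.3 CPM) and A430106G13Rik (1.85 to 3.84 against 0.976 to 1.05 CPM), and overlap for the others.

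The size of the gap in A330023F24Rik depended on normal-Mn replicate 2. The low-Mn mean was 5.33 times the mean of normal-Mn replicates 1 and 3 but 1.76 times the level of normal-Mn replicate 2, and the lowest low-Mn library was 1.70 times that replicate. Without it the log2 fold change was 2.42, against 1.37 without normal-Mn replicate 1 and 1.43 without normal-Mn replicate 3. Among the 11685 genes averaging at least 100 counts, the highest normal-Mn library exceeded the lowest by a median of 1.11 times; for A330023F24Rik the ratio was 3.21, reached by 9 of those genes (0.077%), itself included. The other 8 had mean levels of at most 17.96 CPM, and A330023F24Rik averaged 66.2 CPM over the 6 libraries. Among the low-Mn libraries its ratio was 1.07, close to the median of 1.11 for that diet.

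**Figure D2:**
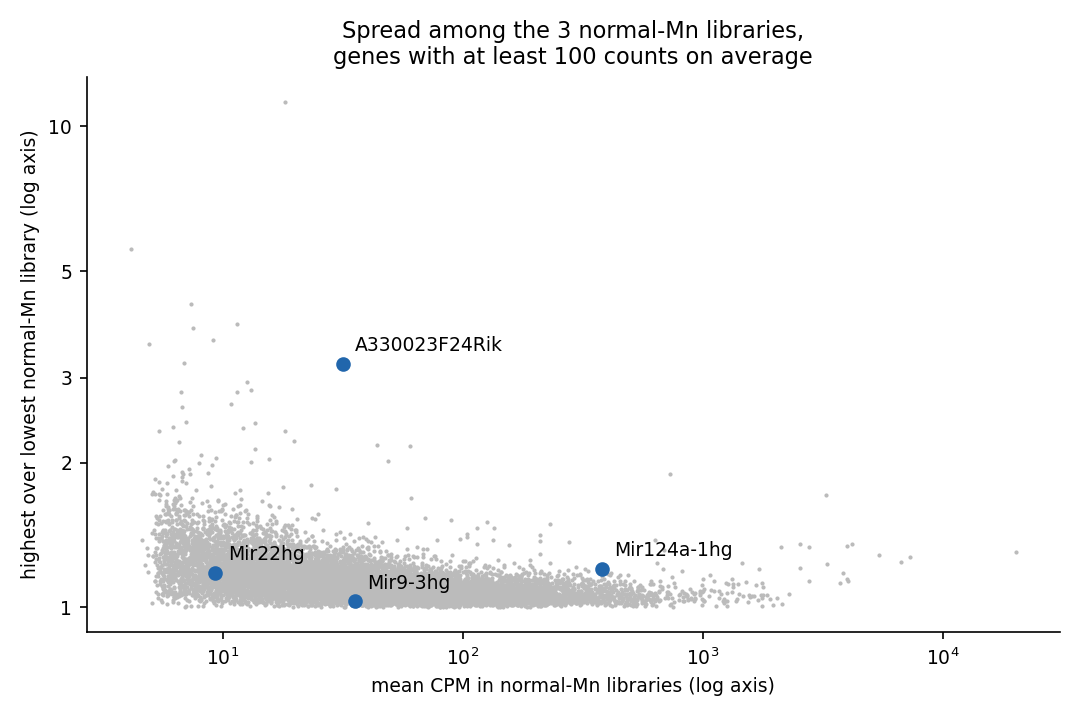
Highest over lowest normal-Mn library (vertical axis, log scale) against mean level in CPM (log scale) for the 11685 genes averaging at least 100 counts, with the hosts among them marked. A330023F24Rik lies far above genes of like level at a ratio of 3.21, while Mir124a-1hg (1.2), Mir22hg (1.18) and Mir9-3hg (1.03) lie near the median of 1.11.

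Reads of overlapping genes could be exchanged with those of A330023F24Rik, so its neighbours were examined. Cd46, which encodes a complement regulatory protein, runs on the opposite strand and shares 1079 bases with it, 11.535% of the exonic bases of the host, over the very exon that holds the hairpins. Whether the library kit and the counting kept the strands apart is uncertain, so reads of this stretch may belong to either gene. Cd46 had 11.2, 10.2 and 10.4 CPM in low-Mn libraries, against 9.83, 9.47 and 14.6 CPM in normal-Mn libraries (edgeR log2 fold change -0.09, SE 0.151, adjusted p = 0.877). It was not raised on the low-Mn diet or in normal-Mn replicate 2. The antisense gene Gm16897 overlaps 426 bases at the other end and held 1.05 to 5.5 counts in low-Mn and 1.26 to 12.59 counts in normal-Mn libraries. Adding the counts of the overlapping genes to those of A330023F24Rik left 1994, 1615 and 1745 counts in low-Mn libraries, against 593, 1415 and 644 in normal-Mn libraries, and a log2 fold change of 1.36. The nearest genes that do not overlap it, Cd34 (a surface protein of blood vessels and stem cells, 15096 bases upstream) and Gm37366 (4479 bases downstream), had log2 fold changes of 0.09 and 0.07 (edgeR adjusted p = 0.836 and 0.973).

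**Figure D3:**
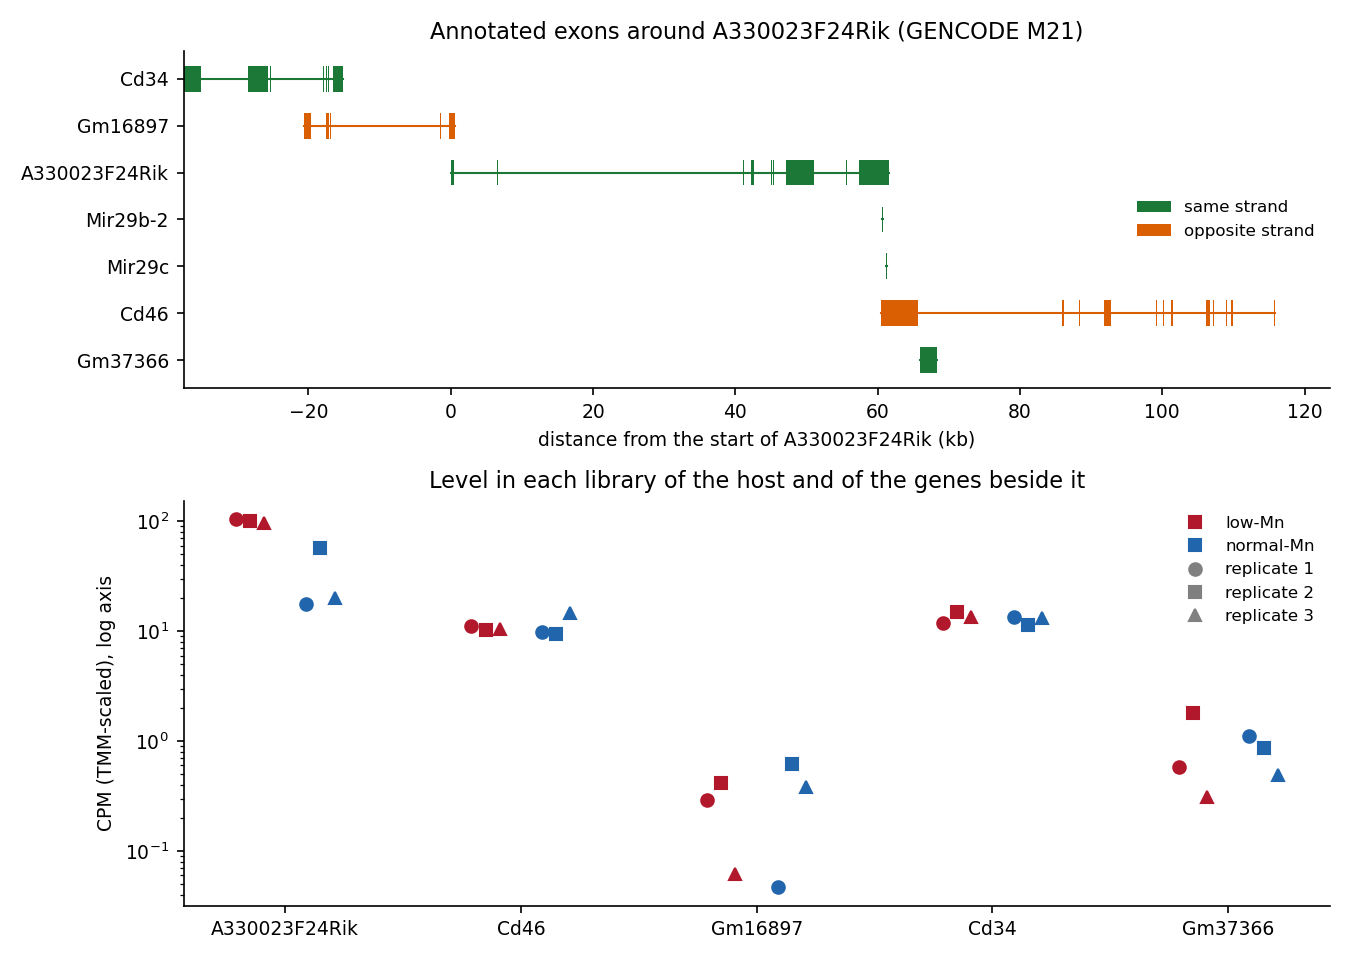
Exons (boxes) of A330023F24Rik and of the genes that overlap or flank it, by distance in kilobases from its start, with one row per gene, and the miR-29b-2 and miR-29c hairpins in its last exon. Cd46, on the opposite strand, is the gene that shares most bases with it (1079), at the exon that holds the hairpins.

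A430106G13Rik was also higher in every low-Mn library, at a level near the limit of these data. It is a single exon of 3388 bases on chromosome 1 (chr1:137966531-137969918, plus strand, ENSMUSG00000098206) that holds the miR-181b-1 hairpin (chr1:137966639-137966718). The miR-181a-1 hairpin (chr1:137966455-137966541) reaches across its annotated start, with 11 bases inside. The mature strands of that hairpin (chr1:137966468-137966490 and chr1:137966508-137966529) lie wholly before the start, so the annotated transcript does not contain them. The transcript had 66, 47 and 30 counts in low-Mn libraries, against 22, 22 and 18 counts in normal-Mn libraries, or 3.84, 3.23 and 1.85 CPM against 1.03, 1.05 and 0.976 CPM. The normal-Mn libraries were nearly alike and the low-Mn libraries spread over a 2.07-fold range above them. The means were 2.97 ± 1.02 CPM in low-Mn and 1.02 ± 0.0374 CPM in normal-Mn cerebellum (SD, n = 3 each), with a log2 fold change of 1.54 (SE 0.331). Its call was lost by limma-voom, and when low-Mn replicate 1 or 2 or any single normal-Mn library was left out, with log2 fold changes of 1.31, 1.48, 1.55, 1.56 and 1.51 in that order. Gm26936, on the opposite strand, shares 128 bases with A430106G13Rik and held no count in any library. Gm4258, a longer transcript on the same strand around it, holds both miR-181 hairpins within its bounds. It held 0 to 6 counts and was not tested.

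Of the 7 hosts, 6 had enough counts for the edgeR fit, and at an adjusted p below 0.05 the low-Mn diet had 2 of them higher and 0 lower. Over all 16123 genes fitted, 96 were called (0.595%), 67 higher (0.416%) and 29 lower (0.18%), but the 2 called hosts were chosen from this very comparison and nothing is read from their count. Likewise the diets did not overlap for 2 of the 7, both with low-Mn above, against 8.79% of all genes fitted with low-Mn above, 8.32% with low-Mn below and 17.1% in either direction. The median log2 fold change of the 6 hosts was 0.052, against -0.003 over all genes fitted. It includes the 2 hosts chosen from this comparison, so nothing is read from it either.

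For the hosts tied to neurons the diets overlapped. Mir124a-1hg (chr14:64587331-64593961, ENSMUSG00000097545), the host of the brain's characteristic neuronal microRNA, had 407.8, 426.5 and 400.9 CPM in low-Mn libraries, against 396.6, 338.0 and 406.8 CPM in normal-Mn libraries. Normal-Mn replicate 2, the highest normal-Mn library for A330023F24Rik, was the lowest here. The means were 411.7 ± 13.3 and 380.5 ± 37.2 CPM (SD, n = 3 each), with a log2 fold change of 0.11 (SE 0.0559), which became 0.03 without normal-Mn replicate 2. Mir9-3hg (chr7:79500026-79534403, ENSMUSG00000097023), which holds miR-9-3 in an intron, had 33.1, 34.9 and 32.1 CPM in low-Mn libraries, against 35.9, 34.9 and 35.9 CPM in normal-Mn libraries. The low-Mn libraries lay slightly below the others but for replicate 2, which just reached the lowest of them, and the log2 fold change was -0.09 (SE 0.0694). No stretch of 50 bases in Mir9-3hg is shared with another annotated transcript, and Gm35040, 1640 bases downstream on the same strand, had a log2 fold change of -0.10 (edgeR adjusted p = 0.77).

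The remaining hosts carry microRNAs found in many tissues. Mir99ahg (ENSMUSG00000090386) spans 537111 bases of chromosome 16 (chr16:77236317-77773427) and holds miR-99a and let-7c-1 in an intron. It had 1.86, 4.26 and 2.71 CPM in low-Mn libraries, against 4.35, 3.14 and 4.50 CPM in normal-Mn libraries, from 32 to 62 and 66 to 93 counts. The diets overlapped through low-Mn replicate 2, and the log2 fold change of -0.45 (SE 0.272) was -0.81 without that replicate and -0.20 without low-Mn replicate 1. Mir22hg (chr11:75461539-75466676, ENSMUSG00000085148), which holds miR-22 in an exon, had 8.49, 8.18 and 11.2 CPM in low-Mn libraries, against 10.3, 8.997 and 8.73 CPM in normal-Mn libraries. Its libraries interleaved and its log2 fold change was -0.01 (SE 0.146). The overlapping gene Tlcd2 covers 10.707% of its exonic bases. Mir17hg (chr14:115042879-115046727, ENSMUSG00000089726), the exonic host of the proliferation-linked cluster, held 7, 8 and 13 counts in low-Mn libraries, against 9, 7 and 9 counts in normal-Mn libraries. At this depth it did not pass the filter on low counts, and a difference between the diets was not detectable.

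Per kilobase of exon, which allows genes to be set beside each other, Mir124a-1hg led at 85.7 ± 2.76 CPM per kb in low-Mn and 79.2 ± 7.74 CPM per kb in normal-Mn cerebellum (SD, n = 3 each). In low-Mn cerebellum it was followed by A330023F24Rik (10.8 ± 0.388 CPM per kb), Mir9-3hg (7.645 ± 0.324), Mir22hg (4.82 ± 0.853), A430106G13Rik (0.877 ± 0.301), Mir99ahg (0.206 ± 0.0851) and Mir17hg (0.166 ± 0.0566). In normal-Mn cerebellum Mir9-3hg (8.15 ± 0.131 CPM per kb) and Mir22hg (4.85 ± 0.436) came before A330023F24Rik (3.39 ± 2.37), and A430106G13Rik (0.300 ± 0.011), Mir99ahg (0.280 ± 0.0521) and Mir17hg (0.117 ± 0.0219) came last. Mir22hg and A330023F24Rik in normal-Mn, A430106G13Rik and Mir99ahg in normal-Mn, and Mir99ahg and Mir17hg in low-Mn did not differ beyond their spread. The level of A330023F24Rik thus stood above that of Mir9-3hg on the low-Mn diet and below it on the normal-Mn diet.

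The hairpins had no counts of their own. The table lists 16 microRNA precursor genes inside or across the hosts, and 0 of them had a count in any library, as was the case for all 2202 annotated microRNA genes. The hairpins matched to RefSeq are 65 to 107 bases long, shorter than the 150-base reads, so a 0 for these entries says nothing of whether they are transcribed, and mature microRNAs were not measured.

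The genes whose 6 values lay nearest to those of A330023F24Rik, by the root mean square difference of log2 CPM after centring each gene, were Gm6361, Tmem114 and Gm5454 (0.372, 0.404 and 0.424, against 1.08 for a flat profile). Gm6361, a processed pseudogene, had 7.73, 7.22 and 9.13 CPM in low-Mn libraries, against 1.54, 8.57 and 2.33 CPM in normal-Mn libraries. It thus shared the high normal-Mn replicate 2, though at a level inside the range of the low-Mn libraries. Nearest to A430106G13Rik were 4930481B07Rik, Gm14584 and Gm37249 (0.155, 0.21 and 0.321, against 0.76 for a flat profile). None of these 6 genes passed the edgeR test at an adjusted p below 0.05, and their log2 fold changes ran between 0.94 (Gm6361) and 1.64 (4930481B07Rik). Tmem114 held 5 to 19 counts per library, Gm5454 6.18 to 26.16 and 4930481B07Rik 6 to 20. Gm14584 held 8.61 to 24.59 and Gm37249 21.72 to 47. At such low counts the likeness of these profiles is limited by depth.

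Other hosts of the same microRNA families were set beside the 7. The let-7 hosts Lncppara (let-7c-2 and let-7b) and 6720427I07Rik (let-7a-1, let-7f-1 and let-7d) also had their highest normal-Mn level in replicate 2. Lncppara had 27.2, 18.5 and 24.7 CPM in low-Mn libraries, against 8.80, 21.2 and 10.8 CPM in normal-Mn libraries (edgeR log2 fold change 0.79, SE 0.21, adjusted p = 0.0969). 6720427I07Rik had 25.8, 20 and 26.7 CPM in low-Mn libraries, against 15.5, 22.7 and 15.7 CPM in normal-Mn libraries (0.43, SE 0.132, adjusted p = 0.166). For both, normal-Mn replicate 2 lay above low-Mn replicate 2, so the diets overlapped. Neither shares exonic bases with another annotated gene. The protein-coding let-7 hosts did not share this pattern: normal-Mn replicate 2 was the lowest of its diet for Huwe1 and Spaca6 and in the middle for Wdr82, with log2 fold changes of -0.02, -0.03 and 0.02 (edgeR adjusted p = 0.892, 0.939 and 0.919).

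The other miR-9 hosts had log2 fold changes of opposite sign, neither past the threshold. C130071C03Rik (miR-9-2) averaged 74.2 ± 5.12 CPM in low-Mn and 64.1 ± 4.52 CPM in normal-Mn cerebellum (SD, n = 3 each; edgeR log2 fold change 0.21, SE 0.0637, adjusted p = 0.151). Gm3764 (miR-9-1) averaged 65.3 ± 4.02 CPM and 76.6 ± 4.99 CPM in the same order of diets (-0.23, SE 0.0618, adjusted p = 0.10). With Mir9-3hg at -0.09, the 3 miR-9 hosts did not share a sign. Gm33366, on the opposite strand, overlaps 23.429% of the exonic bases of C130071C03Rik, so reads of that stretch may belong to either gene. Mir124-2hg, another miR-124 host, had a log2 fold change of 0.02 (SE 0.089, edgeR adjusted p = 0.947), and the miR-99 host 3110039I08Rik one of -0.05 (SE 0.0729, adjusted p = 0.85).

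**Figure D4:**
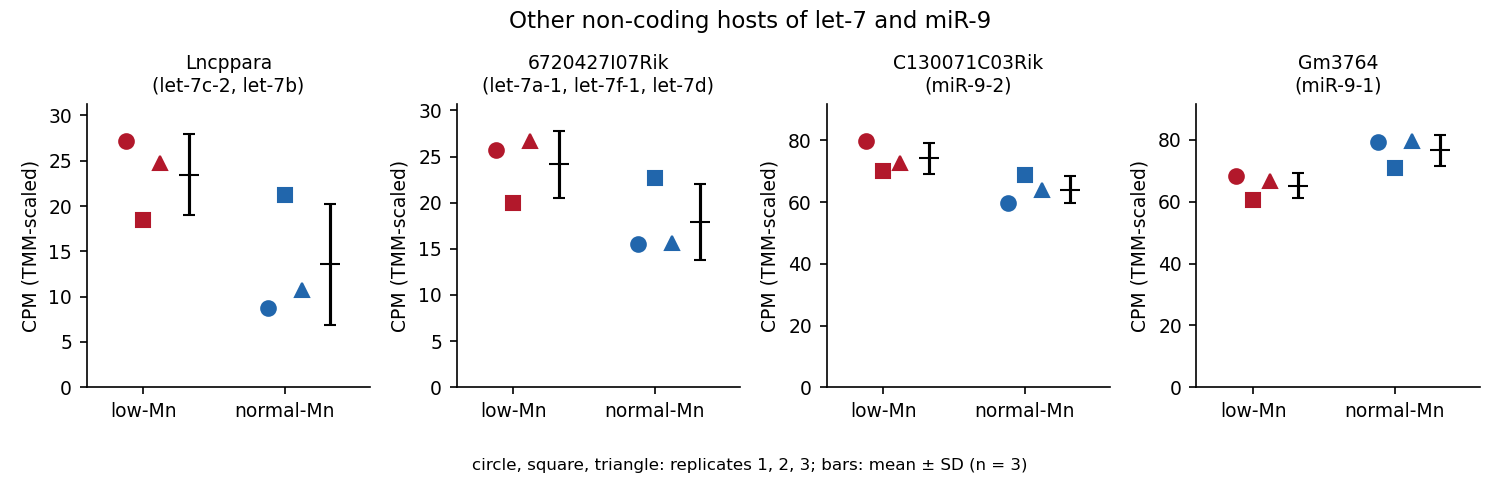
CPM (TMM-scaled) of the let-7 hosts Lncppara and 6720427I07Rik and the miR-9 hosts C130071C03Rik and Gm3764 in every library, low-Mn (red) left of normal-Mn (blue), with bars for mean ± SD (n = 3). In the let-7 hosts normal-Mn replicate 2 (squares, 21.2 and 22.7 CPM) lies above low-Mn replicate 2 (18.5 and 20 CPM).

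Over all non-coding genes that hold an annotated microRNA on the same strand, the 7 left out, 34 were tested and 1 was called higher (2.94%, against 0.595% of all genes), with a median log2 fold change of 0.155. The called gene was Meg3, the imprinted transcript that heads a large microRNA cluster, at 2295 ± 28.8 CPM in low-Mn and 1791 ± 53.0 CPM in normal-Mn cerebellum (SD, n = 3 each; edgeR log2 fold change 0.36, SE 0.0405, adjusted p = 2.99e-04). Of 528 protein-coding hosts tested, 3 were called (0.568%): Tnik, a kinase, and Ubn2, a histone chaperone subunit, were higher (log2 fold changes 0.26 and 0.23, edgeR adjusted p = 0.0241 and 0.0403), and Igf2, a growth factor of the meninges and choroid plexus, was lower (-0.26, adjusted p = 0.0432). The call of Meg3 held whichever library was left out. That of Tnik was lost without replicate 2 or 3 of either diet (edgeR adjusted p up to 0.102), that of Ubn2 held only without normal-Mn replicate 1 (up to 0.141) and that of Igf2 only without normal-Mn replicate 3 (up to 0.20). The calls of Ubn2 and Igf2 were also lost by limma-voom, and that of Ubn2 by upper quartile scaling.

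**Figure D5:**
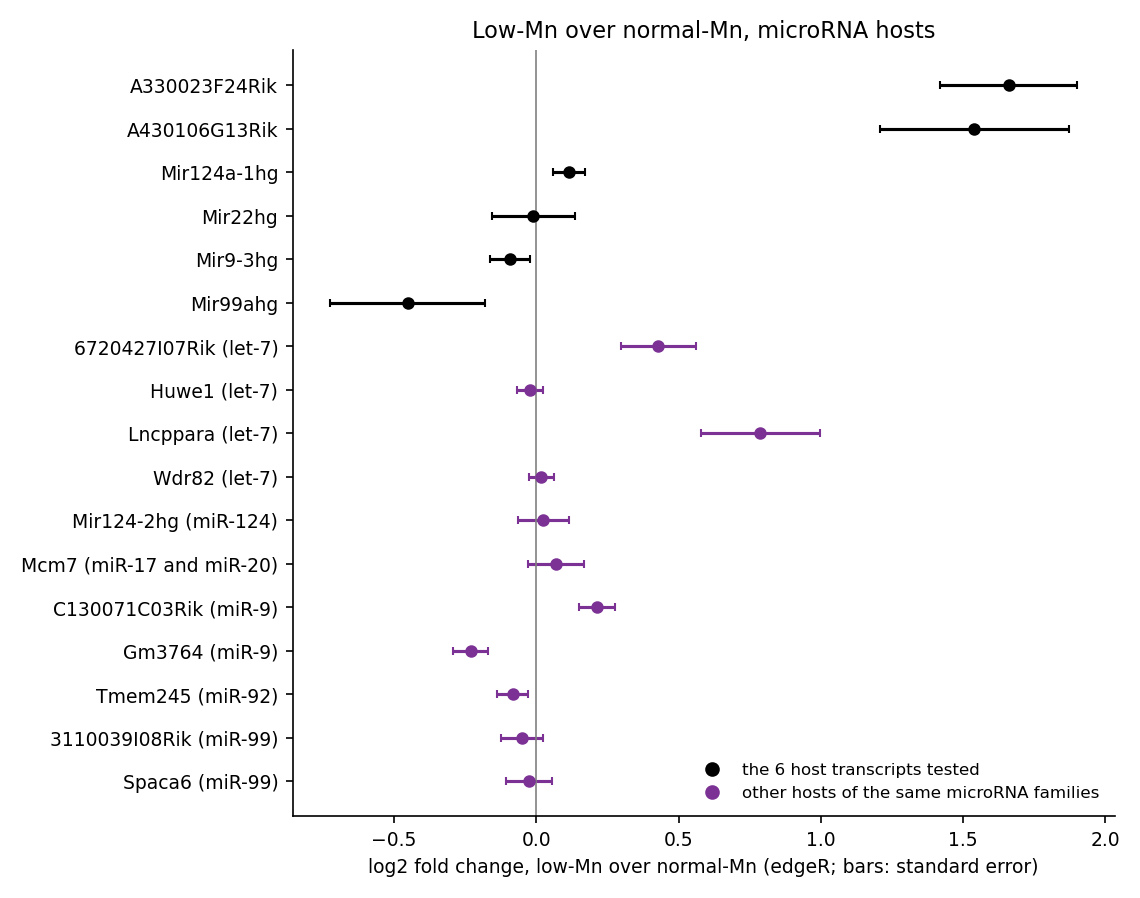
Log2 fold change of low-Mn against normal-Mn (edgeR) with SE for the hosts tested and for other hosts of the same families, non-coding and protein-coding. A330023F24Rik (1.66) and A430106G13Rik (1.54) lie farthest from 0, and the other hosts lie between -0.45 and 0.79.

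Among the genes that make and use microRNAs, 1 passed the test. Over all 16123 genes, 1954 (12.1%) had an unadjusted p under 0.05 in edgeR, and 63 were called by limma-voom and 137 by DESeq2. Of 6 nuclear processing genes tested, 0 passed the edgeR test (1 at an unadjusted p under 0.05, 0 by limma-voom, 1 by DESeq2), among them the helicase Ddx5 with 1398 ± 74.0 CPM in low-Mn and 1248 ± 75.4 CPM in normal-Mn cerebellum (SD, n = 3 each; log2 fold change 0.16, edgeR adjusted p = 0.15). The study itself, which used DESeq2, listed Ddx5 among its significantly raised spliceosome genes. Of 13 cytoplasmic genes, 2 had an unadjusted p under 0.05 and 1 was called higher (7.69%, against 0.595% of all genes), the Argonaute Ago3, with 92.7 ± 3.2 CPM in low-Mn and 77.1 ± 6.71 CPM in normal-Mn cerebellum (log2 fold change 0.27, SE 0.0607, edgeR adjusted p = 0.0479). This call was lost on leaving out any library but normal-Mn replicate 3 (edgeR adjusted p up to 0.21). It was also lost by upper quartile scaling, limma-voom and DESeq2 without independent filtering, but not by DESeq2 as run by default. By default DESeq2 called 2 of the 13 cytoplasmic genes, and limma-voom called 0. Tnrc6a, which links Argonaute to the machinery that silences messenger RNA, had a log2 fold change of 0.19 (edgeR adjusted p = 0.0618). Of 12 regulators of microRNA maturation and decay, 0 passed (2 at an unadjusted p under 0.05, 0 by limma-voom and DESeq2).

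Known targets were looked at for the families whose hosts are described most fully. Of 32 miR-29 targets, 0 passed the edgeR test (7 at an unadjusted p under 0.05, or 21.9% against 12.1% of all genes, 0 by limma-voom, 2 by DESeq2), and their median log2 fold change of -0.002 was near that of all genes (-0.003), with 16 above and 16 below 0. The nearest to the threshold were Tet3, an enzyme that oxidizes methylated DNA (log2 fold change 0.25, edgeR adjusted p = 0.0717), Dnmt3a, a DNA methyltransferase (0.20, adjusted p = 0.073), and Col1a2, a collagen chain (-0.25, adjusted p = 0.123). Col1a2 is also one of the meningeal markers, whose summed level was lower in all low-Mn libraries with Igf2 counted but overlapped without it. The part of the meninges in the value of Col1a2 was not tested. Of 13 miR-181 targets, 0 passed (2 at an unadjusted p under 0.05, or 15.4%, 0 by limma-voom and DESeq2), and Bcl2, a survival factor, had a log2 fold change of -0.37 (edgeR adjusted p = 0.123). Of 17 targets of miR-124 and miR-9, 0 passed (6 at an unadjusted p under 0.05, or 35.3%, 0 by limma-voom and DESeq2), and Hes1, a repressor of neuronal differentiation, had one of -0.76 (edgeR adjusted p = 0.0518).

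A wider view came from 3′ UTRs that hold the match to a seed followed by A, searched on the transcript's own strand among 21039 genes. The miR-29 site TGGTGCTA was in 631 of them (2.999%), of which 516 were tested, 5 called higher and 2 lower, with a median log2 fold change of 0.016. The miR-181 site TGAATGTA was in 1174 (5.58%), of which 936 were tested, 12 called higher and 3 lower, with a median of 0.016. The let-7 site CTACCTCA was in 683 (3.246%), of which 558 were tested, 4 called higher and 0 lower, with a median of 0.017. The miR-9 site ACCAAAGA was in 921 (4.378%), of which 695 were tested, 2 called higher and 1 lower (0.432%), with a median of 0.006. For the sites of miR-99, miR-22, miR-17 and miR-20, miR-18, miR-19 and miR-92, 44 to 922 genes were tested, the medians were -0.007 to 0.022 and 0 to 1.08% were called. Over the 14072 tested genes with a 3′ UTR, 57 were higher and 25 lower (0.583%), with a median of -0.004, and the shares called were 1.36% for miR-29, 1.6% for miR-181 and 0.717% for let-7. A match is a string of letters and not a shown binding site.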

How the data were processed

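Polyadenylated RNA of 6 mouse cerebella, 1 library per mouse, was sequenced as 150-base read pairs. The labels name a directional kit and the study's methods a kit without that word, so whether strand was kept is uncertain. The study's methods call the 3 mice per diet biological replicates and a legend calls them technical; if technical, p-values measure only the spread between libraries. Per the submitters' processing notes, STAR, RSEM and the build mm10 were used. Versions, the annotation release and the strand setting were not given in the sources used here. Expected counts per gene from RSEM were deposited by the authors, and 7.13 to 7.75% of them per library were not whole. The table names the low-Mn columns by number alone; they were taken as low-Mn because the normal-Mn columns are named apart. Of 53807 entries, 92 spike-ins (all 0) were left out.

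Counts were rounded and fitted with edgeR 4.0.16 in R 4.3.3 (glmQLFit, diet as the term, filterByExpr with a minimum count of 10 and total of 15, TMM), with Benjamini-Hochberg adjustment over 16123 genes. The fit was tested on simulated data. CPM used TMM-scaled totals. Alternatives were RLE and upper quartile scaling, no filter, an average of at least 100 counts, unrounded counts, limma-voom 3.58.1, DESeq2 1.42.0, a replicate block, leaving out each library, and adding the counts of overlapping genes. Named genes were the 7 hosts, their precursors, overlapping and nearest genes, and in each list those passing and up to 4 with the smallest p. The other hosts of the same families and the 3′ UTR sites were added after the data were seen. The hosts and lists were chosen with earlier results of these data known, and no test is drawn for the hosts. Genes and sequences were matched to GENCODE M21 and RefSeq GRCm38.p6.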

Additional observations from a re-analysis of the deposited data

How the results depend on the processing

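The count of called hosts (2) was 1 with an average of at least 100 counts (4 hosts were left in that fit, against 6), 1 by limma-voom, 0 by DESeq2 as run by default and without the Cook distance filter, 1 by DESeq2 without independent filtering, and 1 to 2 with 1 library left out. A330023F24Rik was called in every edgeR and limma-voom fit (log2 fold change 1.36 to 2.42) and in no DESeq2 fit (1.67, SE 0.541, dispersion 0.21). A430106G13Rik was called by DESeq2 without independent filtering and received no adjusted p by default. Mir22hg changed sign with 1 library left out (log2 fold change -0.1653 to 0.0688). The 96 genes called overall became 424 with no filter, 63 by limma-voom, 137 by DESeq2, 128 with the replicate block and 37 to 93 with 1 library left out (37 when low-Mn replicate 2 was dropped, 45 for normal-Mn replicate 2 and 47 for low-Mn replicate 1). Upper quartile scaling gave 53 higher and 37 lower, against 67 and 29. The 5 listed genes called became 3 with upper quartile scaling, 31 with no filter, 8 with at least 100 counts, 2 by limma-voom, 16 by DESeq2 by default and without the Cook distance filter, 8 with the replicate block and 1 to 4 with 1 library left out. Samples of the same number had correlations of -0.0238 to 0.0361, against -0.0491 to 0.0193 for samples of unlike number. With 3 mice per diet, these values cannot decide whether the numbers pair the samples. The block left the count of called hosts at 2. Where not shown, the cause was not tested. Transcripts with under 100 counts, A430106G13Rik, Mir99ahg and Mir17hg, are limited by depth.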

Other observations

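Normal-Mn replicate 2 lay at least 1.3 times above both other normal-Mn libraries for 3 of the 27 non-coding microRNA hosts averaging at least 100 counts (11.1%), against 8 of 237 non-coding genes of the same annotation types (3.38%) and 74 of 11685 genes (0.633%). The 3 were A330023F24Rik, which was picked from these data, Lncppara and 6720427I07Rik. In the other direction, it lay at least 1.3 times below both for 0 of the 27 hosts. The same held for 10 of the 237 non-coding genes (4.22%) and 76 of the 11685 genes (0.65%). Over all 40 tested hosts, counted low or high, the share above was 12.5%, against 8.98% of 1158 non-coding genes. The shares below were 2.5% and 14.9% in that order. The limit of 1.3 was chosen after these values were seen, so the shares are a description and carry no test.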
